A study of Mus musculus with 25 samples.

Results

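The set described here is 10 genes, *Impact* and 9 genes of the integrated stress response, which are *Eif2ak4*, *Eif2ak3*, *Atf4*, *Ddit3*, *Ppp1r15a*, *Trib3*, *Sesn2*, *Asns* and *Psat1*. They were matched by symbol among 52636 annotated genes, and all 10 were among the 16340 genes that passed the filter on low counts. The genes were chosen by symbol for their place in 1 pathway, but with their differences between exercised and rested mice of these libraries already known, that of *Impact* above all. The exercise values of the 10 genes are therefore a description and carry no test, whereas genotype, sex and the interactions were tested.

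The integrated stress response slows protein synthesis when cells lack amino acids, load the endoplasmic reticulum with unfolded protein or meet other stresses. Kinases that include GCN2 (*Eif2ak4*), which senses uncharged tRNA, and PERK (*Eif2ak3*), which senses unfolded protein in the endoplasmic reticulum, phosphorylate the initiation factor eIF2. General translation falls while the transcription factor ATF4 is translated more, and ATF4 induces genes of amino acid supply, the factor CHOP (*Ddit3*) and the phosphatase subunit GADD34 (*Ppp1r15a*), which restores eIF2. IMPACT binds the GCN2 partner GCN1 and restrains GCN2, and in mice its gene is imprinted and expressed from the paternal copy. Much of this pathway acts on translation and phosphorylation, which RNA counts do not measure.

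RNA was sequenced from the *soleus*, a slow postural muscle of the calf, of 25 male and female mice aged 12 weeks. Every mouse was homozygous for a *Dnmt3a* allele with loxP sites around exon 19. The 12 WT mice had the floxed alleles alone, and the 13 mD3AKO mice also carried a Cre transgene under the muscle creatine kinase promoter, which is active in muscle fibers, and other cells of the tissue may keep DNMT3A, a *de novo* DNA methyltransferase. Exercised mice ran for 30 min on a treadmill at 16 m/min and 5% incline and were killed 60 min later, while rested mice spent 30 min on a sham treadmill. There were 5 rested and 7 exercised WT mice, and 7 rested and 6 exercised mD3AKO mice, each with a library of its own. The study asked how loss of DNMT3A bears on the muscle and on its transcriptional response to a bout of exercise.

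The libraries held 22671457 to 37431801 counts assigned to genes. Levels are given in CPM, counts per 1000000 of the effective library size, which is the total after TMM scaling. Ribosomal RNA took 39.6% of the counts of 1 library, mouse 15 (male, mD3AKO, rest), and 7.95% to 13.1% of those of the other 24. Without mouse 15 none of the calls of single genes among the 10 changed for exercise, genotype, their interaction, sex or sex by exercise (0 of 50 calls over 5 contrasts), and *Impact* gave 1.74 on the log2 scale for exercise. *Dnmt3a* was 93.4 CPM or more in every WT mouse and 53.9 CPM or less in every mD3AKO mouse. All 7 muscle fiber markers were present: *Myh7*, *Tnnt1*, *Tnni1*, *Tnnc1*, *Myl3*, *Ckm* and *Acta1*. *Ckm* and *Acta1* are not particular to slow fibers, and *Acta1* alone averaged 29914 CPM at rest. The 7 summed to 51437 to 74441 CPM in rested mD3AKO mice, with ranges inside these limits in the other groups. None was called for exercise by edgeR, at an unadjusted p under 0.05 or by DESeq2 (0 genes each). In bulk muscle, fewer cells of a type and less RNA per cell cannot be told apart.

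At rest the 10 genes covered a wide range of levels, compared here as CPM per kb of annotated gene length over the 12 rested mice. *Atf4* was the highest at 85.7 ± 6.39 CPM per kb (SD), followed by *Ddit3* at 17.8 ± 2.70. *Impact* (4.83 ± 0.451) and *Ppp1r15a* (4.45 ± 0.716) came next and overlapped each other. The remaining genes lay far lower. *Psat1* (1.41 ± 0.452), *Eif2ak3* (1.38 ± 0.172), *Trib3* (1.18 ± 0.142), *Asns* (1.04 ± 0.443), *Eif2ak4* (0.829 ± 0.127) and *Sesn2* (0.733 ± 0.125) each overlapped the next gene in this order. The steps from *Atf4* to *Ddit3*, from *Ddit3* to *Impact* and from *Ppp1r15a* to *Psat1* were the ones without overlap of single mice.

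*Impact* (ENSMUSG00000024423, chr18:12972252-12992948, plus strand, mm10) stood apart from every other gene of the set after exercise. In rested WT mice it was 14.2, 16.2, 16.9, 17.0 and 17.6 CPM. In exercised WT mice it ran from 43.2 to 67.4 CPM with a median of 56.6 CPM. Every exercised WT mouse was thus above every rested one, by a wide gap. Rested mD3AKO mice ran from 13.8 to 19.0 CPM (median 17.3), and exercised mD3AKO mice from 38.9 to 70.5 CPM (median 49.5), again without overlap. Over both genotypes the mean was 16.6 ± 1.55 CPM at rest (SD, n = 12) and 55.0 ± 9.81 CPM after exercise (SD, n = 13), a 3.31-fold difference, or 1.73 on the log2 scale (SE 0.086). Levels after exercise were spread more widely than levels at rest, and the lowest exercised mouse was still at 38.9 CPM against 19.0 CPM in the highest rested mouse.

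**Figure D1:**
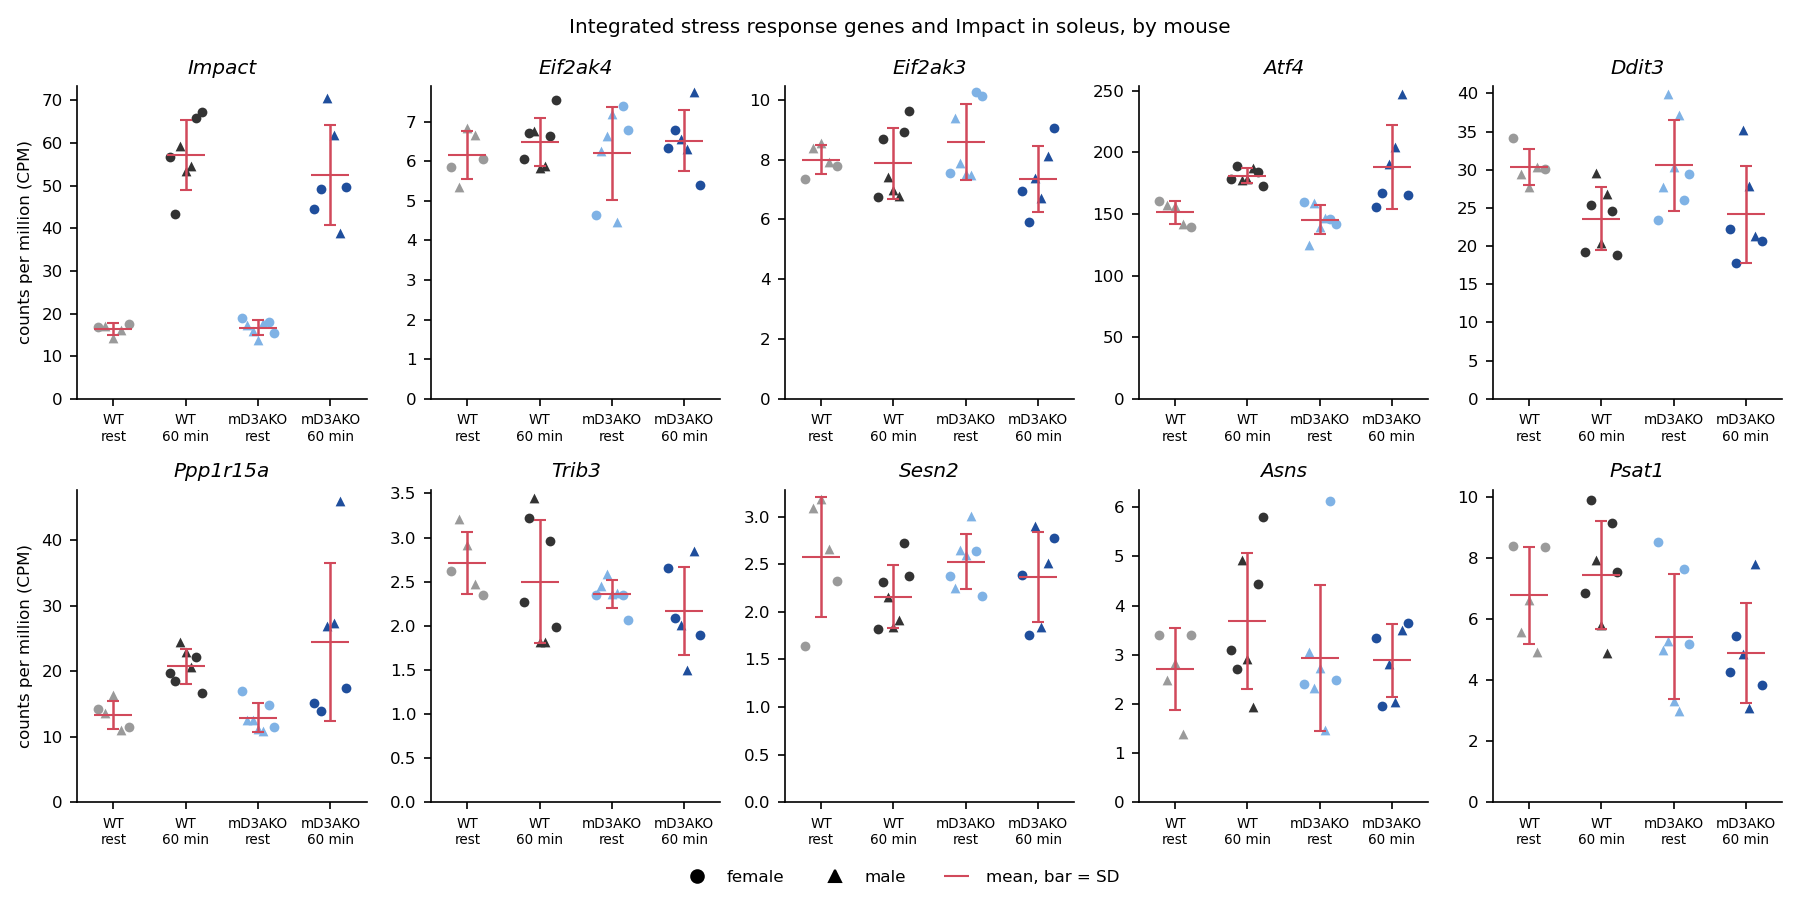
Expression of the 10 genes in each mouse, in CPM, by genotype and exercise state (circles, female; triangles, male; red, mean and SD). *Impact* lies at 13.8 to 19.0 CPM in rested and 38.9 to 70.5 CPM in exercised mice, and *Atf4* and *Ppp1r15a* lie higher after exercise with some overlap.

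Across all genes, 1699 of 16340 (10.4%) were called for exercise (edgeR quasi-likelihood test, Benjamini-Hochberg adjusted p under 0.05), 5.7% higher and 4.69% lower. Of the 10 genes, 4 were called: *Impact*, *Atf4* and *Ppp1r15a* higher and *Ddit3* lower. *Impact* was the only one of the 10 in which every exercised mouse exceeded every rested mouse, which held for 0.765% of all genes tested. Since the set was chosen on this contrast, nothing is read from these counts. A larger log2 fold change than that of *Impact* was found for 38 of 12807 genes (those whose log2 CPM averaged 0 or more).

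None of the 6 tested genes around *Impact* was called for exercise, where 10.4% of all genes were. With so few genes, 0 calls is near that share, and nothing is read from this count. Within 500 kb on either side lay 13 other genes, of which 6 had enough counts to be tested, with 0 called by edgeR, 0 at an unadjusted p under 0.05 and 0 by DESeq2. The abundant neighbor was *Osbpl1a*, of the oxysterol-binding protein family, which starts 30.4 kb upstream on the opposite strand. It was 96.8 CPM at rest and 96.7 CPM after exercise, a log2 fold change of 0.0090 (SE 0.051, edgeR adjusted p = 0.963). *Lama3*, a laminin chain, gave -0.18 (SE 0.12), *Ttc39c* -0.093 (SE 0.095) and *Cabyr* -0.14 (SE 0.16) on the log2 scale. The pseudogene *Gm5687* gave 0.15 (SE 0.16) and the small RNA gene *Gm26407* 0.15 (SE 0.23). *Cabyr*, *Gm5687* and *Gm26407* had at most 46, 26 and 23 counts in any mouse. On the other side, *Hrh4*, a histamine receptor gene that starts 34.7 kb downstream of the *Impact* start, had at most 5 counts in any mouse and was not tested.

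The 5 genes most like *Impact* over the 25 libraries were found from the root mean square difference in log2 CPM, with each gene set relative to its own rested mean. These were *Slc20a1*, a phosphate transporter (difference 0.227), *Tob2*, of the BTG/TOB antiproliferative family (0.311), *Bcl2l1*, which encodes the survival protein BCL-XL (0.327), *Kcne4*, a potassium channel subunit (0.344), and the unnamed gene *9830144P21Rik* (0.361). The median difference over 12806 genes was 1.26. *Slc20a1* went from 9.22 to 15.9 CPM at rest to 32.5 to 51.8 CPM after exercise, and *Tob2* from 29.6 to 54.6 CPM to between 100.6 and 142.1 CPM. None of the other stress response genes came close to this pattern, the nearest being *Ppp1r15a* at 0.816 and *Atf4* at 1.04.

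Both eIF2 kinases were nearly level across the groups. *Eif2ak4* (GCN2, chr2:118388618-118475234) was 6.18 ± 0.947 CPM at rest (SD, n = 12) and 6.505 ± 0.655 CPM after exercise (SD, n = 13), a log2 fold change of 0.071. In all but 2 exercised mice it lay within the range of the rested mice. *Eif2ak3* (PERK, chr6:70844515-70905245) was 8.35 ± 1.03 CPM at rest and 7.64 ± 1.14 CPM after exercise, a log2 fold change of -0.12, with 6 of 13 exercised mice below the lowest rested mouse. Neither kinase was called for any comparison made here.

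*Atf4* (chr15:80255184-80257540), the transcription factor at the center of the pathway, was the most abundant of the 10 genes and modestly higher after exercise. In rested WT mice it was 139.5, 142, 156, 157 and 161 CPM, and in exercised WT mice it ran from 172 to 189 CPM with a median of 178 CPM, without overlap. Rested mD3AKO mice ran from 125 to 159 CPM (median 146) and exercised mD3AKO mice from 156 to 248 CPM (median 179), so that 1 exercised mD3AKO mouse lay within the range of the rested ones. The log2 fold change was 0.32 (SE 0.059), or 1.25-fold. The top value of 248 CPM came from mouse 19, a male of the exercised mD3AKO group, and without it the log2 fold change was 0.27. In females alone it was 0.19 and the call was lost.

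*Ppp1r15a* (chr7:45522916-45526268, minus strand), the regulatory subunit that returns eIF2 to its active form, was higher after exercise than at rest. Rested WT mice were at 11.0, 11.5, 13.6, 14.2 and 16.3 CPM, and exercised WT mice at 16.8 to 24.5 CPM with a median of 20.7 CPM. Rested mD3AKO mice ran from 10.8 to 16.9 CPM (median 12.5) and exercised mD3AKO mice from 13.9 to 46.0 CPM (median 22.2). All exercised WT mice were above all rested WT mice, while 2 of the 6 exercised mD3AKO mice overlapped the rested ones. Over both genotypes, 10 of 13 exercised mice were above the highest rested mouse, and the log2 fold change was 0.78 (SE 0.14). Mouse 19 was again the highest at 46.0 CPM, and leaving it out gave 0.64. In females alone the value was 0.34 and the call was lost.

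*Ddit3* (CHOP, chr10:127290774-127296288), a factor induced by ATF4 and linked to cell death under lasting stress, went the other way. Rested WT mice were at 27.7, 29.5, 30.1, 30.4 and 34.2 CPM, and exercised WT mice ran from 18.9 to 29.6 CPM (median 24.6). Rested mD3AKO mice ran from 23.4 to 39.9 CPM (median 29.5) and exercised mD3AKO mice from 17.7 to 35.2 CPM (median 21.8). In both genotypes the groups overlapped, though 12 of 13 exercised mice were below the median of the rested mice of both genotypes. The log2 fold change was -0.35, and the call was lost without mouse 1 of the rested WT group and in males alone (-0.23). *Mars*, the methionyl-tRNA synthetase gene, overlaps *Ddit3* on the opposite strand and had 863 to 2430 counts per library, against 509 to 1386 for *Ddit3*. Whether strand was used in counting is not given in the sources used here, so reads of the shared stretch cannot be assigned with certainty.

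Start-site sequence was compared for the members with a promoter entry, since ATF4 with its C/EBP partners binds a composite element and CREB or ATF factors bind the cAMP response element. Promoter windows of 300 bases (250 before the start and 50 after it) from RefSeq on GRCm38.p6 were held for 9 of the 10 genes, *Impact* being the gene without an entry. These were searched on both strands for TGATGNAA (composite C/EBP-ATF element) and TGACGTCA (cAMP response element), 2 motifs with no shared match. TGATGNAA was found in 2 of the 9 genes, *Asns* and *Trib3*, and in 3.97% of all 32851 windows, and TGACGTCA in *Ppp1r15a* alone and in 1.79% of all windows. The 3 stretches below show 50 bases on either side of the start, 5′ to 3′ on the strand of the gene with the match in capitals. A match is a run of letters and not a measured site, and no match says only that these letters are not in the window.

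*Ppp1r15a* (chr7:45526219-45526318, minus strand): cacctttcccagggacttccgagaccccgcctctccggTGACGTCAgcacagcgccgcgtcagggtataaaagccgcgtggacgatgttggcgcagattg

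*Asns* (chr6:7693160-7693259, minus strand): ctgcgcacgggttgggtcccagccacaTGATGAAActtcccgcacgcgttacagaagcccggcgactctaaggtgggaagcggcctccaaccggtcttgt

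*Trib3* (chr2:152344011-152344110, minus strand): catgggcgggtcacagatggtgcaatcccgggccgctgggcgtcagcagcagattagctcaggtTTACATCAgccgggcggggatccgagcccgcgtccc

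In *Ppp1r15a* the match began 12 bases before the start, in *Asns* 23 bases before it, and in *Trib3* 15 bases after it and on the reverse strand. These starts are those of RefSeq. The one of *Ppp1r15a* is also the start of the gene in the annotation of the counts, and that of *Asns* lies 45 bases downstream of it. That of *Trib3* lies 28 bases upstream, so that its match is outside the annotated gene. The 30 bases after the *Trib3* start were in no *Trib3* transcript of the GENCODE reference. Among genes without a match, the *Psat1* starts lie 22278 and 22715 bases downstream of the annotated start, which their windows do not cover. *Eif2ak4* had 1 start 494 bases downstream and 1 whose next 30 bases were in none of its transcripts.

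The remaining 4 genes act downstream of ATF4 and showed no clear shift between rest and exercise. *Trib3* (chr2:152337422-152344032), a pseudokinase that feeds back on ATF4 and CHOP, was 2.51 ± 0.302 CPM at rest (SD, n = 12) and 2.35 ± 0.612 CPM after exercise (SD, n = 13), a log2 fold change of -0.12. *Sesn2* (sestrin 2, a leucine sensor upstream of mTORC1, chr4:132492032-132510501) was 2.55 ± 0.435 and 2.25 ± 0.399 CPM, a log2 fold change of -0.17, and no exercised mouse lay outside the range of the rested mice. These 2 genes had 34 to 109 counts per library.

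*Asns* (asparagine synthetase, chr6:7675169-7693254) was 2.84 ± 1.21 CPM at rest and 3.32 ± 1.17 CPM after exercise, a log2 fold change of 0.20 (SE 0.20). Its spread between mice was large in relation to its level, from 1.39 CPM in a rested WT mouse to 6.12 CPM in a rested mD3AKO mouse (mouse 21). Without mouse 21 the log2 fold change was 0.34, and without mouse 14 it was 0.11. Females alone gave -0.031 and males alone 0.35. *Psat1* (phosphoserine aminotransferase of serine synthesis, chr19:15904678-15947337) was 5.99 ± 1.92 CPM at rest and 6.26 ± 2.11 CPM after exercise, a log2 fold change of -0.017, which is the mean of 0.13 in WT and -0.17 in mD3AKO mice. Females alone gave -0.33 (SE 0.15) and males alone 0.21 (SE 0.21), opposite in sign. A share of 2.18% of the 31-base words of *Psat1* transcripts also occurs in the pseudogene *Gm12611*, so that a few of its reads may be shared.

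The responses were also estimated within each genotype, to compare exercised with rested mice of WT and of mD3AKO alone. These are the exercise values the set was chosen on, so they too are a description, and nothing is read from the counts. In WT mice, 3.59% of all genes were called for exercise, and of the 10 genes *Impact* was, at 1.80 on the log2 scale (SE 0.13), while without mouse 19 *Atf4* and *Ppp1r15a* were called in WT too. In mD3AKO mice, where 6.02% of all genes were called, these were *Impact* at 1.65 (SE 0.12), *Ppp1r15a* at 0.92 (SE 0.20) and *Atf4* at 0.37 (SE 0.080). The WT values of the last 2 genes were 0.64 (SE 0.21) and 0.26 (SE 0.085). In mD3AKO females alone *Ppp1r15a* was at 0.10 and *Atf4* at 0.12, neither called, and in mD3AKO males alone they were at 1.49 and 0.58. The call of *Atf4* in mD3AKO mice was also lost with no normalization factors (0.34), and *Ddit3* was called there without mouse 10 (-0.48). Being called in 1 genotype and not in the other does not show a difference, which the interaction tests directly.

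**Figure D2:**
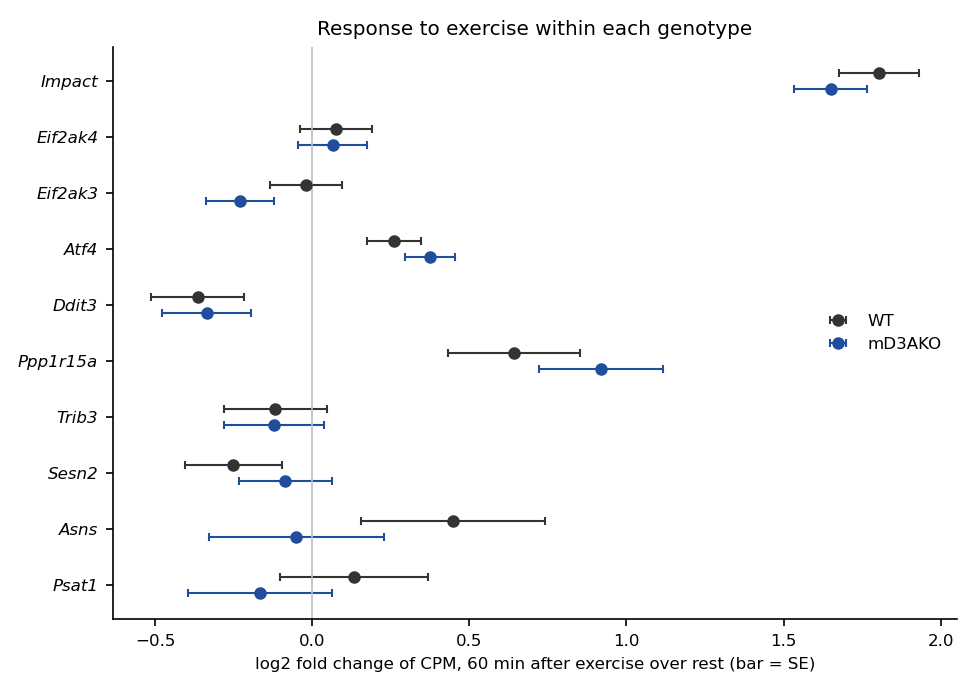
Log2 fold change of the 10 genes 60 min after exercise over rest within WT (black) and mD3AKO (blue) mice, with the SE of the fit. *Impact* lies at 1.80 and 1.65, *Ppp1r15a* at 0.64 and 0.92, and *Ddit3* below 0 in both genotypes.

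The interaction of genotype and exercise was not called for any of the 10 genes by edgeR, with 0 at an unadjusted p under 0.05 and 0 by DESeq2. Across all genes 0 (0%) were called by edgeR and 0 by DESeq2, with 403 at an unadjusted p under 0.05. The response of *Impact* in mD3AKO minus that in WT was -0.15 on the log2 scale (SE 0.17, edgeR adjusted p = 1.00). For *Ppp1r15a* the difference was 0.28 (SE 0.29, adjusted p = 1.00), and without mouse 19 it was -0.0025. Females alone gave -0.48 (SE 0.23) and males alone 0.77 (SE 0.26), neither called. For *Atf4* females alone gave -0.14 (SE 0.12) and males alone 0.33 (SE 0.15), also not called. *Psat1* gave -0.65 (SE 0.29) in females alone and 0.20 (SE 0.42) in males alone, opposite in sign and neither called. *Asns* gave -0.50 (SE 0.40, adjusted p = 1.00), and -0.22 without mouse 21.

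Loss of DNMT3A gave no called difference in the level of any of the 10 genes by edgeR or by DESeq2 (0 genes each), while 0.269% of all genes were called by edgeR. 1 gene, *Psat1*, had an unadjusted p under 0.05. *Psat1* was 6.78 ± 1.58 CPM in rested WT mice (SD, n = 5) and 5.42 ± 2.05 CPM in rested mD3AKO mice (SD, n = 7). After exercise it was 7.44 ± 1.77 CPM in WT (SD, n = 7) and 4.89 ± 1.64 CPM in mD3AKO mice (SD, n = 6). The mD3AKO minus WT difference over rest and exercise was -0.46 on the log2 scale (SE 0.16, edgeR adjusted p = 0.506), and the groups overlapped in both states. The 4 adipocyte markers, none of them called for genotype, also had values below 0, with *Plin1* at -0.80, *Adipoq* at -0.68, *Cidec* at -0.66 and *Fabp4* at -0.19. Their summed level was 232 to 541 CPM in WT and 197 to 506 CPM in mD3AKO mice, and their part in the value of *Psat1* was not tested. *Trib3* gave -0.20 (SE 0.11, adjusted p = 0.893) and *Impact* -0.049 (SE 0.083, adjusted p = 1.00). The other genes lay between -0.11 and 0.096.

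Sex was in the labels, and both sexes were in every group. Females were mice 1 to 6 and 20 to 25 and males mice 7 to 19, so sex and anything that goes with the mouse number cannot be told apart. Across all genes 8.65% differed between the sexes, 824 higher and 589 lower in males. With no normalization factors, which shifts the median of all genes by -0.10 on the log2 scale, these were 151 and 605. Of the 10 genes none was called by edgeR, 3 had an unadjusted p under 0.05 and DESeq2 called 1, *Ppp1r15a*. Male minus female, *Ppp1r15a* gave 0.29 on the log2 scale (SE 0.092, edgeR adjusted p = 0.0559), *Ddit3* 0.23 (SE 0.086, adjusted p = 0.103) and *Psat1* -0.38 (SE 0.14, adjusted p = 0.0870), and with no normalization factors these were 0.19, 0.12 and -0.47. Without mouse 19, *Psat1* and *Ddit3* were called, and *Ppp1r15a* was called without mouse 2, 10, 14, 17 or 22.

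The response to exercise was tested for a difference between the sexes as well, where 0.0551% of all genes were called. None of the 10 genes was called by edgeR or DESeq2 (0 genes each), and 3 had an unadjusted p under 0.05: *Ppp1r15a*, *Atf4* and *Sesn2*. *Ppp1r15a* in rested mice was 13.8 ± 2.33 CPM in females (SD, n = 5) and 12.6 ± 1.95 CPM in males (SD, n = 7). After exercise it was 17.7 ± 2.82 CPM in the 7 females and 28.1 ± 9.12 CPM in the 6 males. Exercised females ran from 13.9 to 22.2 CPM and exercised males from 20.7 to 46.0 CPM, so that the sexes overlapped only slightly. The male minus female difference in response was 0.77 on the log2 scale (SE 0.18) and did not pass the edgeR test over all genes (adjusted p = 0.331). Without mouse 19 it was 0.62.

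Fitted within each sex, *Ppp1r15a* gave 0.34 (SE 0.11) in females and 1.11 (SE 0.13) in males on the log2 scale. *Atf4* gave 0.19 (SE 0.062) and 0.41 (SE 0.074), with a male minus female difference of 0.22 (SE 0.094, edgeR adjusted p = 1.00). For both genes the sexes lay close in WT mice and apart in mD3AKO mice. *Ppp1r15a* gave 0.58 (SE 0.17) in WT females and 0.73 (SE 0.19) in WT males, against 0.10 (SE 0.16) in mD3AKO females and 1.49 (SE 0.18) in mD3AKO males. *Atf4* gave 0.26 and 0.25 in WT females and males, and 0.12 and 0.58 in mD3AKO females and males. Whether the sex difference in response differed between the genotypes was not tested. *Sesn2* gave 0.081 (SE 0.16) in females and -0.36 (SE 0.13) in males, a difference of -0.44 (SE 0.20, adjusted p = 1.00). *Impact* gave 1.60 (SE 0.11) and 1.81 (SE 0.12), and in each sex every exercised mouse was above every rested mouse. Of the 7 muscle fiber markers, 4 were lower and 1 higher in males by edgeR. Those called were *Myh7*, *Tnnt1*, *Tnni1*, *Tnnc1* and *Ckm*, the last not particular to slow fibers. The 7 markers, with *Acta1* a large part of the sum, summed to 53503 to 74441 CPM in females and 51437 to 63146 CPM in males. Their part in the sex differences was not tested.

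*Atf4* and *Ppp1r15a* varied together between mice of the same group. After subtraction of group means from log2 CPM, all 45 pairs of the 10 genes were compared over the 25 mice, which share depth and composition of the library between genes. *Atf4* and *Ppp1r15a* gave Pearson's r = 0.83 and Spearman's rho = 0.73 (permutation p = 0.0005 and 0.0013, adjusted over the 45 pairs 0.0225 and 0.0576). Without the 2 mice farthest from the median of *Atf4*, mice 3 and 19, r was 0.65. It was 0.56 in rested mice, 0.91 in exercised mice, 0.67 in females and 0.62 in males. The adjusted permutation p by Pearson rose above 0.05, so that the call was lost, when any 1 of mice 2, 10, 17, 19 or 20 was left out, with r between 0.68 and 0.83. The call was also lost when the means of 8 groups of sex, genotype and exercise were subtracted instead of those of 4 groups (r = 0.63, adjusted permutation p = 0.151).

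**Figure D3:**
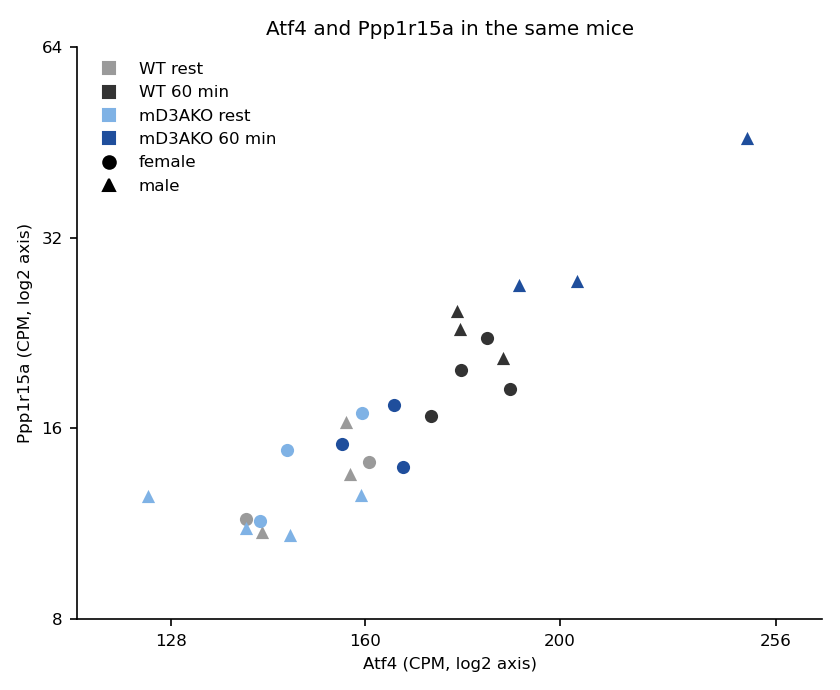
*Ppp1r15a* against *Atf4* in each of the 25 mice, in CPM on log2 axes (color, group; circles, female; triangles, male). Mice with more *Atf4* had more *Ppp1r15a*, and mouse 19 stands at the top right at 248 and 46.0 CPM.

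This was the 1 pair past an adjusted p of 0.05 by Pearson's r, and 0 pairs passed by Spearman's rho, of which 4 had an unadjusted permutation p under 0.05. Another 4 pairs had an unadjusted Pearson p under 0.05. *Eif2ak3* with *Asns* gave r = 0.59 (rho 0.56, permutation p = 0.0033 and 0.0070, adjusted 0.0733 and 0.105). This pair was called when any 1 of mice 1, 5, 9, 11 or 24 was left out (r between 0.59 and 0.64). *Asns* with *Psat1* gave r = 0.55 (rho 0.48), *Eif2ak3* with *Sesn2* 0.49 (rho 0.54) and *Trib3* with *Psat1* 0.45 (rho 0.35), with adjusted permutation p = 0.0988, 0.0988 and 0.143 by Pearson and 0.251, 0.105 and 0.546 by Spearman. *Asns* with *Psat1* was called without mouse 5 (r = 0.61), and *Eif2ak3* with *Sesn2* without mouse 15 (r = 0.57) or mouse 24 (r = 0.58). *Trib3* and *Psat1* gave r = -0.16 in rested and 0.79 in exercised mice, and *Eif2ak3* and *Sesn2* 0.049 and 0.83, while *Asns* and *Psat1* gave -0.15 in females and 0.75 in males. These last pairs did not hold within both states or both sexes. With the means of 8 groups subtracted, *Trib3* and *Psat1* were the 1 pair called (r = 0.72, adjusted permutation p = 0.0495).

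Other genes of the pathway were taken from 7 lists of 82 genes with textbook roles in it, of which 81 were tested. *Fgf21*, a stress hormone, had at most 3 counts per library and was not tested. After exercise 18 of the 81 genes were called higher and 1 lower by edgeR, beside 5.7% and 4.69% of all genes. The lists were chosen with earlier results of these data known, so these counts are not independent evidence and nothing is read from them. The same limit holds for the exercise calls and p-values of single list genes given below, which are a description. Between the sexes, 8 of the 81 genes were called by edgeR and 9 by DESeq2, 1 higher and 7 lower in males by edgeR. Beside 8.65% of all genes the total is a share near the background and no result about the lists. By direction, 824 of all genes were higher and 589 lower in males, and 151 and 605 with no normalization factors. The split of the list genes was not tested against these, and nothing is read from that split. Male minus female, the log2 differences were -0.69 for *Stc2*, -0.67 for the X-linked eIF2 subunit *Eif2s3x*, -0.38 for *Pdia6* and 0.32 for *Vldlr*, calls that were kept whichever single mouse was left out. They were -0.52 for *Cth*, -0.41 for *Sdf2l1*, -0.17 for *Calr* and -0.17 for *Atf6*, and these calls were lost when any 1 of 18, 15, 8 and 17 of the 25 mice was left out. With no normalization factors all 8 kept their sign and 6 were called. None was called for genotype (6 at an unadjusted p under 0.05), for the interaction (2) or for the difference in response between the sexes (4), and DESeq2 called 0 in each. The median log2 fold change of all genes tested was -0.00088.

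**Figure D4:**
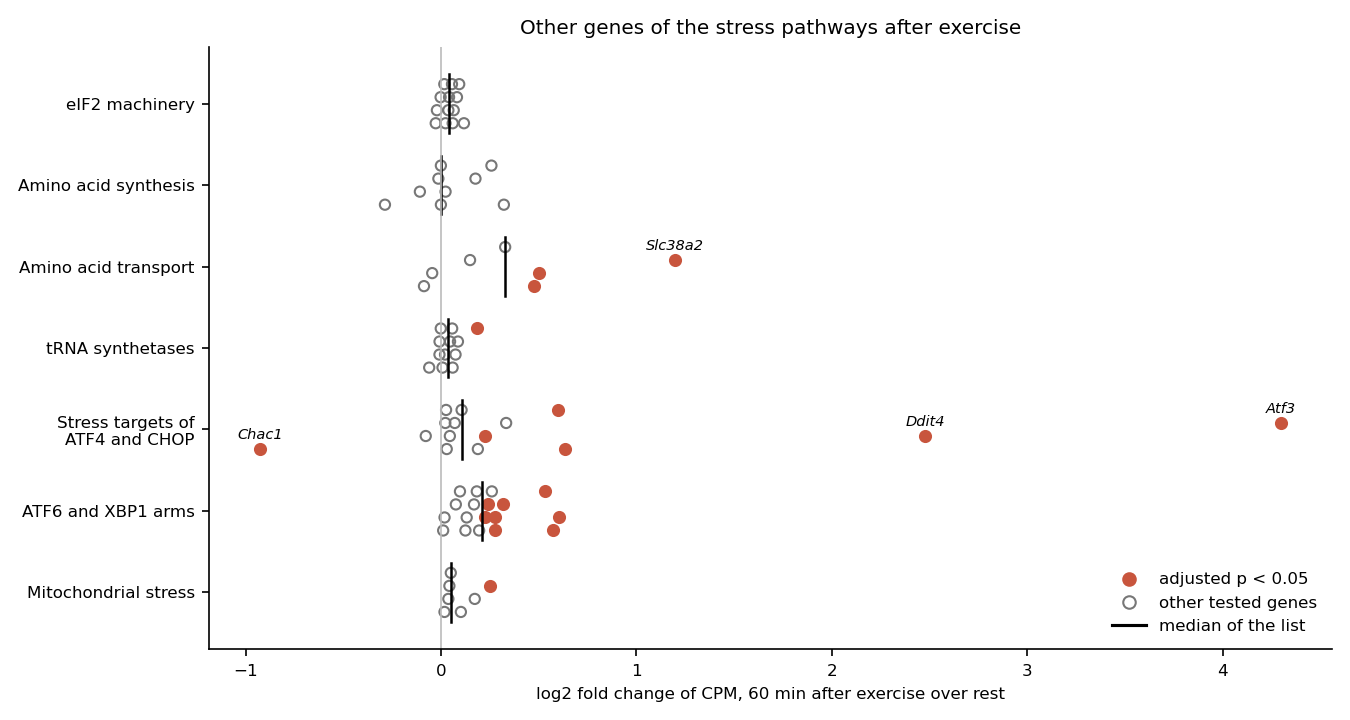
Log2 fold change 60 min after exercise over rest of each tested gene of the 7 pathway lists (filled, edgeR adjusted p under 0.05; open, other genes; bar, median of the list). *Atf3* at 4.30 and *Ddit4* at 2.48 lie farthest to the right and *Chac1* at -0.92 farthest to the left, while the eIF2 machinery lies between -0.027 and 0.12.

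Of the machinery around eIF2, outside the 10 genes and so without *Ppp1r15a*, 13 genes were tested, which encode the other kinases, the eIF2 and eIF2B subunits, GCN1, a phosphatase partner (*Ppp1r15b*) and an inhibitor of PERK and PKR (*Dnajc3*). None was called for exercise by edgeR, at an unadjusted p under 0.05 or by DESeq2 (0 genes each). The list's median was 0.041 on the log2 scale. Likewise none of 9 genes of amino acid synthesis was called by any of these (0 genes each, median -0.00048). Over all genes 10.4% were called by edgeR. With lists this small, 0 calls is near that share, and nothing is read from these counts. Of the 12 cytosolic aminoacyl-tRNA synthetases only *Eprs* was called, 451 ± 45.7 CPM at rest (SD, n = 12) and 515 ± 47.9 CPM after exercise (SD, n = 13). Its log2 fold change was 0.18 (SE 0.058, edgeR adjusted p = 0.0421), and the call was lost when any 1 of 16 of the 25 mice was left out.

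Amino acid transport went higher in 3 of 7 genes (list median 0.33). *Slc38a2* (SNAT2, a neutral amino acid transporter) rose from 59.98 to 146.4 CPM at rest to between 131.0 and 332.7 CPM after exercise, 2.30-fold (SE 0.15 on the log2 scale, edgeR adjusted p = 2.94e-06). In females alone its log2 fold change was 0.78 and the call was lost (edgeR adjusted p = 0.0679), while males alone gave 1.54. *Slc7a1*, a cationic amino acid transporter, rose by 0.50 (SE 0.086) and *Slc3a2*, the heavy chain CD98, by 0.47 (SE 0.061) on the log2 scale. The ranges of rested and exercised mice overlapped for all 3 genes.

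Among 15 tested stress targets of ATF4 and CHOP, 5 rose and 1 fell (median 0.11). *Atf3*, a transcription factor of the immediate stress response, was 6.96 to 36.5 CPM at rest and 19.7 to 818 CPM after exercise, 19.7-fold by the fit (log2 4.30, SE 0.55). In females alone its value was 2.52 and the call was lost (edgeR adjusted p = 0.0922), while males alone gave 5.27. *Ddit4* (REDD1, an inhibitor of mTORC1 that glucocorticoids also induce) went from 4.08 to 17.6 CPM to between 35.4 and 69.1 CPM, without overlap (log2 2.48, SE 0.18). *Cebpb* rose by 0.64 (SE 0.11) and *Jdp2* by 0.60 (SE 0.074), both leucine zipper factors. *Chac1*, which degrades glutathione, fell by 0.92 (SE 0.26, edgeR adjusted p = 0.0182), from 5.21 to 38.1 CPM at rest to between 4.86 and 12.5 CPM. Without mouse 1 (rested WT) its value was -0.59 and the call was lost, as it was in females alone (-1.30) and in males alone (-0.58).

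The ATF6 and XBP1 arms of the unfolded protein response, which respond to the endoplasmic reticulum beside PERK, had 8 of 18 genes called higher and a median of 0.21. *Hspa5* (BiP, the chief chaperone of the endoplasmic reticulum) was 258 ± 35.7 CPM at rest (SD, n = 12) and 391 ± 67.7 CPM after exercise (SD, n = 13), a log2 fold change of 0.60 (SE 0.083). *Manf*, a secreted protein of the same compartment, gave 0.57 (SE 0.095), the BiP partner *Sdf2l1* 0.53 (SE 0.14) and the disulfide isomerase *Creld2* 0.32 (SE 0.098). The call of *Creld2* was lost when any 1 of 10 mice was left out. Without mouse 14 (rested WT) 5 of the 18 genes were called. Of 7 genes of the mitochondrial stress relay and chaperones, *Hspe1* rose by 0.25 (SE 0.065), from 43.8 to 52.2 CPM on average. In females alone the calls of *Sdf2l1* (0.49), *Creld2* (0.18) and *Hspe1* (0.17) were lost, and in males alone those of *Sdf2l1* (0.45) and *Creld2* (0.39).

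Among markers of other cell types, some of those of satellite cells and endothelium were called for exercise. Of 4 satellite cell markers, *Pax7* and *Myf5* were lower after exercise by edgeR, with the summed level at 31.3 to 38.1 CPM in rested and 26.6 to 32.9 CPM in exercised mice. For genotype *Pax7* was the marker called, higher in mD3AKO mice by 0.48 on the log2 scale. The other satellite cell markers were at 0.064 (*Myf5*), -0.035 (*Calcr*) and -0.14 (*Cdh15*), none of them called. Of 4 endothelial markers, *Kdr* and *Cdh5* were lower, with the summed level at 308 to 427 CPM in rested and 261 to 350 CPM in exercised mice. None of the 4 markers each of fibroblasts, immune cells, adipocytes, Schwann cells and blood was called for exercise by edgeR (0 genes), with 1 gene, *Pdgfra*, at an unadjusted p under 0.05 and called by DESeq2. The fibroblast markers nevertheless had the lowest median of these 3 lists, -0.38 on the log2 scale against -0.29 for satellite cells and -0.17 for endothelium. Their values were *Col3a1* -0.44, *Pdgfra* -0.39, *Col1a1* -0.37 and *Dcn* -0.12, with the summed level at 810 to 4194 CPM in rested and 858 to 1983 CPM in exercised mice. Of the adipocyte markers *Cidec* was at 0.72, *Plin1* at 0.11, *Adipoq* at 0.070 and *Fabp4* at 0.044. Of the immune markers *Cd68* was at 0.46, with 1.85 to 32.4 CPM in exercised mice, while *Ptprc* was at -0.34, *Adgre1* at -0.17 and *Lyz2* at -0.10. The part of these cells in the exercise values of the stress genes was not tested.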

How the data were processed

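The deposited table gives raw counts per gene for the 25 libraries, and no column of another sample was in it (0 columns). According to the methods and to the submitters' processing notes, the authors made ribosome-depleted, stranded total RNA libraries, sequenced them as 75-base pairs, and used FastQC 0.11.5, STAR 2.5.3a and featureCounts 1.5.3 with the mm10 GENCODE M15 annotation. The strand setting of the counting is not given in the sources used here.

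Counts were normalised by TMM and fitted with edgeR 4.0.16 in R 4.3.3 (quasi-likelihood test). Genes were kept by filterByExpr (at least 10 counts per library and 15 in total). The 4 groups of genotype and exercise had 1 mean each. Contrasts were exercise, genotype, their interaction and exercise within each genotype, and the sex contrasts came from a fit of 8 groups. P-values were adjusted by Benjamini-Hochberg over all genes tested, and genes with an adjusted p under 0.05 were called. Replicates are separate mice. Pairs of genes were compared by a two-sided permutation test with 100000 permutations within groups, on log2 CPM (prior count 2). With a mouse left out, 10000 permutations were used. The code was tested on simulated data.

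The 10 genes and the lists were chosen with earlier results of these data known. Named genes were the 10, the tested genes within 500 kb of *Impact*, the up to 4 called list genes per direction with the largest log2 fold change and a mean log2 CPM of at least 0, list genes called for genotype, an interaction or sex by exercise, *Dnmt3a*, and the 5 genes most like *Impact*. Genes named because a count was small were chosen after their values were seen. *Cebpg*, *Xbp1*, *Hsp90b1*, *Dnajb9* and *Hyou1* are the remaining list genes called for exercise, and list genes called for sex were named after their values were seen. Alternatives were DESeq2 1.42.0, its size factors in edgeR, no normalization factors, no filter, sex as a term, each sex alone, no ribosomal RNA rows and each mouse left out.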

Additional observations from a re-analysis of the deposited data

Results flagged for a closer look

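1 of 40 sets of values, the levels of 10 genes in 4 groups, held a mouse set apart from the rest of its group by Dixon's criterion, which chance gives in about 1 in 20 groups. In the rested mD3AKO group, *Asns* was 6.12 CPM in mouse 21, a female, and 1.47 to 3.06 CPM in the other mice of the group.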

How the results depend on the processing

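*Impact*, *Atf4* and *Ppp1r15a* had a positive exercise value under every alternative run and *Ddit3* a negative one. With no mouse left out the count of called genes among the 10 was 4 in every setting except females only, where it was 2 (*Impact* and *Ddit3*), and males only, where it was 3 (*Ddit3* not called). For the sex difference the count was 1 (*Ppp1r15a*) with DESeq2, with its size factors in edgeR, without the count filter and without ribosomal RNA rows, and 0 to 2 when single mice were left out. For the difference in exercise response between the sexes it was 1 (*Ppp1r15a*) without the count filter.

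Among the tRNA synthetases 0 genes were called with DESeq2 size factors, no normalization factors, no count filter, females only or no ribosomal RNA rows, and 0 to 1 without single mice. Females only gave 3 stress targets, 3 genes of the ATF6 and XBP1 arms, 0 mitochondrial genes and 8 genes over all lists. Males only gave 2 genes of the ATF6 and XBP1 arms. No normalization factors gave 3 genes of these arms and 12 over all lists, and DESeq2 gave 2 mitochondrial genes. Leaving out single mice gave 5 to 9 genes of these arms, 1 to 2 mitochondrial genes and 0 to 3 pairs of genes.

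In males only, *Impact* reversed for genotype (0.028) and for the interaction (0.0076). *Ppp1r15a* reversed for the interaction in females only (-0.48; males only 0.77) and without mouse 19 (-0.0025; range without single mice -0.0025 to 0.40). The cause was not tested. Over all genes, 927 were called for exercise with no normalization factors, 512 in females only and 966 in males only. For genotype, 29 were called with no normalization factors, 81 by DESeq2, 72 with sex as a term, 6 in females only and 23 in males only. No paired analysis was possible because each mouse number belongs to 1 group. The lowest depths were those of *Trib3*, *Sesn2* and *Asns*, with medians of 82, 79 and 96 counts.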
